A study of Mus musculus with 8 samples.

Results

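The genes described here are those of cholesterol handling: the enzymes that build cholesterol, the proteins that switch these enzymes on, and the genes for cholesterol uptake, transport, storage and efflux. A list of 32 such genes was matched to the arrays, taking every probe set (a group of short probes for 1 transcript) whose platform annotation gave 1 symbol only and that symbol was on the list. This gave 29 genes with 64 probe sets, where the arrays held 45101 probe sets and 13259 genes had a probe set bright enough to be tested. Of the 64 probe sets, 59 were bright enough to be tested, and all 29 genes kept at least 1 of them. Acat2, Nr1h2 and Soat1 were on the list and are not analysed here. The 29 genes were 18 synthesis enzymes, of which 7 act in the mevalonate and isoprenoid steps and 11 in the sterol steps, and 11 other genes. These 11 were 4 regulators of SREBP, 4 genes of the liver X receptor and efflux, and 3 genes of uptake, transport and storage.

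The cells were subcutaneous preadipocytes, the precursors of fat cells, taken from C57BL/6 mice 2 days after birth. All 8 samples carried the Dicer lox/lox genotype. The 4 control samples had received an adenovirus with GFP (Ad5CMVeGFP), and the 4 knockout samples an adenovirus with Cre recombinase and GFP (Ad5CMVCre-eGFP), both at 750 MOI with 4 µg/mL polybrene, and RNA was taken 4 days later. Dicer is the enzyme that cuts microRNA precursors into mature microRNAs, and Cre removes the part of its gene that lies between the lox sites. No cells without lox sites were given Cre among these samples, so that the loss of Dicer cannot be told apart from an effect of Cre or of its virus. RNA was hybridised to Affymetrix 430 2.0 arrays, 1 sample an array, and replicate numbers 1 to 4 were shared by the groups.

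Cells sense cholesterol in the endoplasmic reticulum. When sterols are scarce, Scap carries the transcription factor SREBP-2 (gene Srebf2) to the Golgi, where it is cut free to switch on nearly every synthesis enzyme, whereas Insig proteins hold Scap back when sterols are plentiful. When oxysterols accumulate, the liver X receptors (LXRs, such as Nr1h3) switch on the exporters Abca1 and Abcg1, the apolipoprotein Apoe and the ubiquitin ligase Mylip. The arms are tied by microRNAs of the miR-33 family: mmu-miR-33-5p is encoded inside Srebf2 and is known to repress Abca1.

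Because mature microRNAs are made by Dicer, the sequence of this microRNA is shown, with its seed (bases 2 to 8) in capitals. It lies at chr15:82198127-82198147 on the plus strand of GRCm38.p6, within the span of Srebf2, per RefSeq. The arrays did not measure mature microRNAs.
mmu-miR-33-5p: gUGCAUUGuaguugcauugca

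Promoter windows, from 250 bases before to 50 bases after the transcription start, were present in the RefSeq table (GRCm38.p6) for 23 of the 29 genes, 15 of them synthesis enzymes and 8 others. They were searched on both strands for CCAAT, the letters bound by NF-Y, for CACGTG, an E-box, and for TCACNCCAC, the letters of a sterol regulatory element. Matches of different motifs were counted separately where they overlapped, and a match is a description of the letters in the window. CCAAT occurred in at least 1 window of 15 of 15 synthesis enzymes (100%) and of 4 of 8 other members (50%). It did so for 42.5% of the 10666 tested genes with a window and 41.1% of all 27025 genes. NF-Y is known to work beside SREBP at such promoters. Some genes had several windows. By window, CCAAT matched 15 of 18 of the synthesis enzymes (83.3%), 4 of 14 of the others (28.6%) and 37.4% of those of tested genes. Fdps, Fdft1 and Sqle had no window. CACGTG occurred for 3 of 15 synthesis enzymes (20%) and 3 of 8 others (37.5%), against 11.3% of tested genes. TCACNCCAC occurred for 1 of 15 synthesis enzymes (6.67%), Hmgcs1, and for 0 of 8 others, against 1.47% of tested genes.

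The windows of Hmgcs1, Cyp51 and Insig1 are shown because each had an array flagged below as far from the other 3 of its group. The flag rests on the gap to the closest array as a share of the range, not on the size of the gap. They are read 5′ to 3′ along the gene, with matches to any of the 3 motifs, on either strand, in capitals (CCAAT reads ATTGG on the other strand). Hmgcs1 lies at chr13:119690101-119690400 on the plus strand and held 4 CCAAT matches and the sterol regulatory element. Cyp51 lies at chr5:4104648-4104947 on the minus strand and held 1 CCAAT match. Insig1 lies at chr5:28071162-28071461 on the plus strand and held 1 CCAAT match and 1 E-box.
Hmgcs1: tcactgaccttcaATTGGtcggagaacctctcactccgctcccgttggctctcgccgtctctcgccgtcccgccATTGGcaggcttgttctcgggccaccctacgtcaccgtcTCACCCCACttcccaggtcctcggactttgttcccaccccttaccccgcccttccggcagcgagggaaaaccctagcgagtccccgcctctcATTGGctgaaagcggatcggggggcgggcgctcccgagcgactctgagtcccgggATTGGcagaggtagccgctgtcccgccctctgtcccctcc
Cyp51: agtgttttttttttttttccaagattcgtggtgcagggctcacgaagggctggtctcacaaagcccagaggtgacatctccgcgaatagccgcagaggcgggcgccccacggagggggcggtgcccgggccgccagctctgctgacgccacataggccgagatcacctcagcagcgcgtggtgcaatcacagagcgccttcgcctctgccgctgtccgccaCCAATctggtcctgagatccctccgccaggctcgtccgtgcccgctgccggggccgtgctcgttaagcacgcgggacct
Insig1: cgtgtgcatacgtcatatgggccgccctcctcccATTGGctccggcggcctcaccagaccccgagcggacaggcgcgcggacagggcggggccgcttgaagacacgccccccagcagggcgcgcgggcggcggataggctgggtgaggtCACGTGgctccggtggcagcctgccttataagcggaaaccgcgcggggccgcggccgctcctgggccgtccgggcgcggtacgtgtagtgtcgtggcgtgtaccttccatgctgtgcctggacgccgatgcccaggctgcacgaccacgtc

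The deposited values are linear signals (array intensity) whose 2% trimmed mean was 1500 on every array, and their median per array was 321.1 to 418.9. The number of arrays, 4 a group, limits the precision. A control probe for the 5′ end of 18S ribosomal RNA read 5905.9 to 14007.2 on the odd-numbered arrays and 30583.9 to 43029.9 on the even-numbered ones, in both groups. Dicer1 itself had 2 tested probe sets, with log2 differences of -0.15 (SE 0.20) and -0.26 (SE 0.27) and limma adjusted p = 0.999 for each. Where these probe sets lie relative to the deleted part was not examined, so that they do not check the deletion. All 10 measured preadipocyte and stromal markers were bright enough to be tested and summed to 433400 to 524300 in control and 413100 to 485500 in knockout, whereas the adipocyte markers Adipoq, Cidec, Cd36 and Lep, 4 of the 8 measured, were too dim to be tested. The other 4 were tested, 3 above and 1 below 0, and 0 passed: Lpl read between 10006.4 and 34282.2, and Fabp4 had a log2 difference of 0.55, higher in 3 of 4 pairs, with a limma adjusted p of 0.251 with pairs. Of the endothelial, skeletal muscle, epithelial and Schwann cell markers measured, 3 of 6, 2 of 5, 2 of 5 and 2 of 2 were bright enough to be tested, and 0 passed the test in either fit.

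No member of the cholesterol group passed the test between knockout and control. limma was run on log2(signal + 73.1) and called a probe set at an adjusted p under 0.05 over all 27026 tested probe sets. Of the 59 tested member probe sets, 0 were called without pairing (0.0037% of all probe sets were called higher and 0% lower, and 0% of genes either way) and 0 with same-numbered samples as pairs (0.037% higher, 0.0111% lower). Counted by gene, the paired fit called 0 of 29 members, and 0.0603% of all tested genes higher and 0.0151% lower. The limma adjusted p was 0.999 for every tested member probe set without pairs, and the smallest with pairs was 0.0971, for Apoe. At an unadjusted p under 0.05, 1 of 29 members was lower without pairing, Apoe, and 0 were higher (1.94% and 1.99% of all tested genes). With pairs, 7 of 29 were lower (Fdps, Fdft1, Sqle, Nsdhl, Hsd17b7, Abca1 and Apoe) and 1 was higher, Abcg1, where the shares of all tested genes were 5.35% and 4.96%. The same 7 genes read lower in 4 of 4 pairs (9.44% of all genes), and Sc5d and Abcg1 read higher in 4 of 4 (8.64%). In 0 members did the knockout and control values separate fully (1.3% of genes lay fully above and 1.22% fully below). The labels call the samples biological replicates without naming animals or cultures, so the p-values measure only the spread between these samples, which may be technical.

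**Figure D1:**
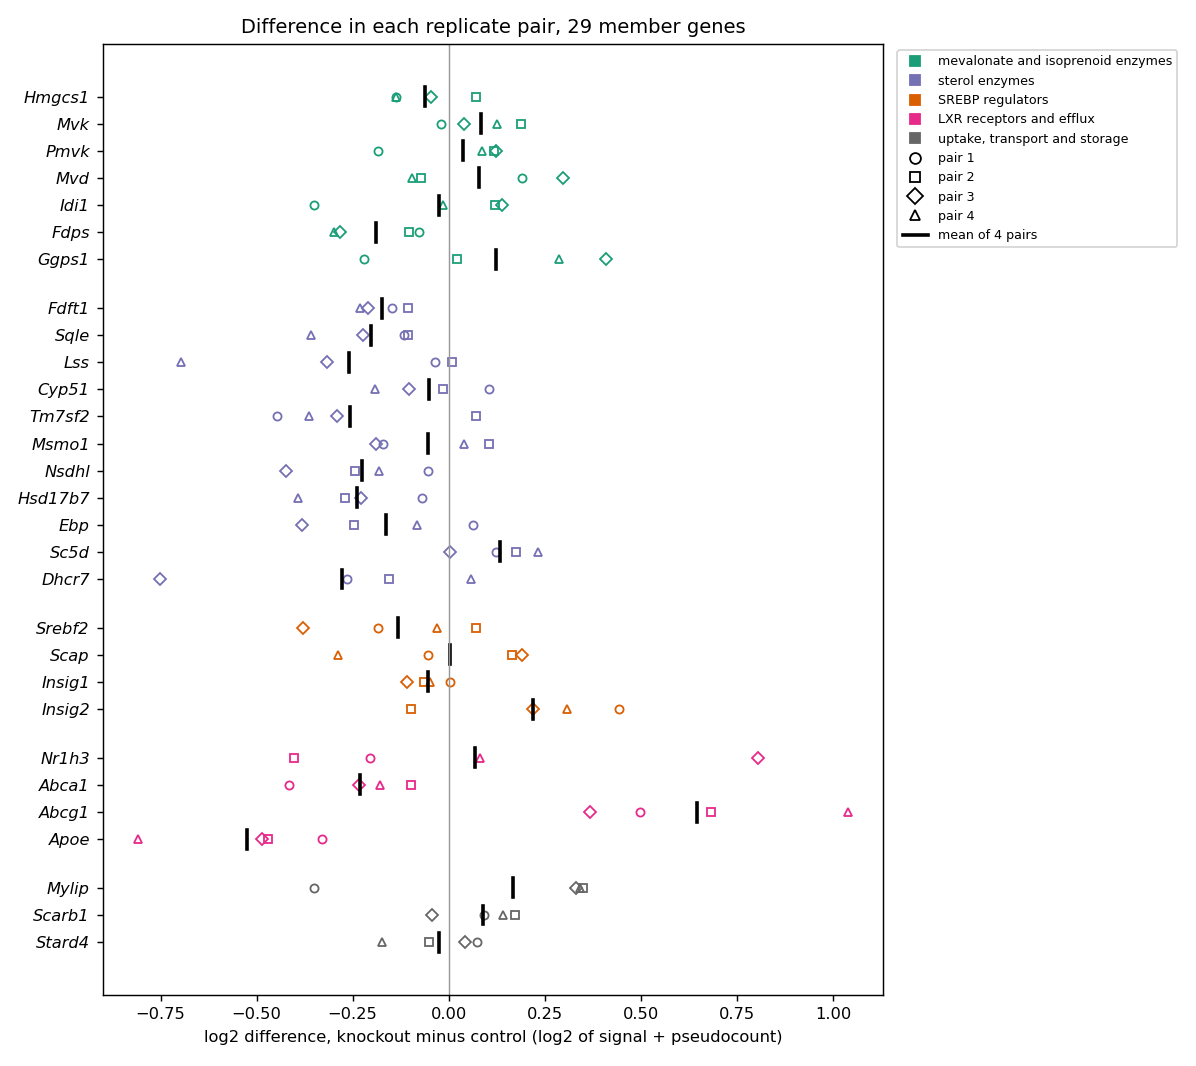
Log2 difference (knockout minus control, on log2 of signal plus pseudocount, horizontal axis) of the 29 members in each of the 4 same-numbered pairs, with 1 row a gene, colours for the role, and a bar at the mean of the 4 pairs. The markers of 10 of 11 sterol enzymes centre left of 0, Apoe lies at -0.33 to -0.81, and Abcg1 at 0.37 to 1.04.

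The mevalonate and isoprenoid enzymes turn acetyl-CoA units into farnesyl and geranylgeranyl diphosphate. Their 7 log2 differences ran from -0.19 to 0.12 with a median of 0.04, 4 above 0 and 3 below, beside a median of -0.002 over all tested genes, of which 49.6% were above 0 and 50.4% below. Hmgcs1, which makes HMG-CoA, had signals of 46605, 29415, 43689 and 46183 in controls 1 to 4, against 42338, 30893, 42338 and 41956 in knockouts 1 to 4. The array numbered 2 was the lowest by a wide gap in each group, and the groups overlapped. Means were 41470 ± 8141 and 39380 ± 5662 (SD, n = 4), a log2 difference of -0.06 (SE 0.16; 0.07 with pairs). All 5 tested probe sets of Hmgcs1 had a difference below 0, from -0.16 to -0.06, and in limma its adjusted p was 0.999 and 0.857 with pairs.

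Fdps, which makes farnesyl diphosphate, was the only enzyme of these steps that was lower in every pair. It read 8931, 9097, 9674 and 12737 in control and 8456, 8467, 7942 and 10350 in knockout. Control array 4 was the highest of all 8, and the knockout array 4 stood above the first 3 controls, so that the groups overlapped. The log2 difference was -0.19 (SE 0.13; 0.08 with pairs), with a limma adjusted p of 0.999 and of 0.491 with pairs. Without control array 4 it was -0.07. The kinases Mvk and Pmvk had differences of 0.08 (SE 0.14) and 0.04 (SE 0.15). Mvd, the decarboxylase, Idi1, the isomerase, and Ggps1, which makes geranylgeranyl diphosphate, had 0.08 (SE 0.16), -0.03 (SE 0.20) and 0.12 (SE 0.16). In each of these last 3 genes the tested probe sets disagreed in direction.

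The sterol enzymes carry the pathway from farnesyl diphosphate through squalene and lanosterol to cholesterol. Of these 11 genes, 10 had a log2 difference below 0, with a median of -0.20 and a range from -0.28 to 0.13. The median was -0.07, -0.11, -0.23 and -0.19 in pairs 1 to 4. Over all tested genes the median was -0.002, with 50.4% below 0, and 0 of the 11 sterol enzymes passed the test in either fit. The median was -0.12 without knockout array 2 or control array 3 and -0.29 without control array 2, and 8 of 11 stayed below 0 without knockout array 2. With 1 whole pair left out, the median was -0.229 to -0.155 and 10 of 11 were below 0.

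In the sterol steps 4 enzymes read lower in 4 of 4 pairs. Fdft1, which joins 2 farnesyl units into squalene, read 7841, 6814, 10312 and 10594 in control and 7072, 6321, 8910 and 9019 in knockout. Numbers 3 and 4 were high and numbers 1 and 2 low in both groups, so that the groups overlapped while each knockout array stood below its partner. The log2 difference was -0.17 (SE 0.17; 0.08 with pairs) with a limma adjusted p of 0.521 with pairs, and of its 4 tested probe sets 3 were below 0 and 1 was at 0.22. Without control array 2 the difference was -0.29, and without knockout array 2 it was -0.08. With 1 whole pair left out it was -0.196 to -0.155.

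Sqle, squalene epoxidase, commits squalene to sterols. It read 10945, 8438, 12572 and 11238 in control and 10086, 7834, 10753 and 8756 in knockout. Number 2 was lowest and number 3 highest in each group. The difference was -0.20 (SE 0.14; 0.08 with pairs), from 10800 ± 1726 to 9357 ± 1312 (SD, n = 4), with a limma adjusted p of 0.459 with pairs. It was -0.31 without control array 2, -0.12 without knockout array 2 and -0.233 to -0.149 with 1 whole pair left out.

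Nsdhl removes a carboxyl group from the sterol ring system. It read 6051, 5669, 6172 and 5465 in control and 5831, 4773, 4585 and 4814 in knockout. Knockout array 1 stood among the controls and the other 3 knockout arrays below all of them. The difference was -0.23 (SE 0.11; 0.09 with pairs) with a limma adjusted p of 0.47 with pairs.

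Hsd17b7, a ketoreductase of the same demethylation complex, read 4559, 3251, 5729 and 4687 in control and 4343, 2684, 4878 and 3555 in knockout. Number 2 was again the lowest and number 3 the highest in both groups, and the groups overlapped. The difference was -0.24 (SE 0.20; 0.09 with pairs), with a limma adjusted p of 0.447 with pairs. Of its 4 tested probe sets 2 were below 0 and the 2 dimmer ones above, at 0.03 and 0.13. Without knockout array 2 the difference was -0.08, and with 1 whole pair left out it was -0.297 to -0.189.

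The other sterol enzymes were lower in at most 3 pairs. Dhcr7, the last reductase, had the lowest value of the 18 synthesis enzymes at -0.28 (SE 0.16), with -0.75 in pair 3 and 0.06 in pair 4, and -0.14 without control array 3. Lss, which closes squalene epoxide to lanosterol, had -0.26 (SE 0.21), with -0.70 in pair 4 and between -0.32 and 0.01 in the others, and it ranged from -0.47 without control array 2 to -0.13 without control array 4. Tm7sf2, a sterol reductase, had -0.26 (SE 0.16; -0.15 without control array 1) and Ebp, a sterol isomerase, -0.16 (SE 0.11; -0.10 without control array 3). Cyp51, the lanosterol demethylase, and Msmo1, the sterol methyl oxidase, both had -0.05 (SE 0.15 and 0.17). Sc5d, the desaturase before Dhcr7, was the 1 sterol enzyme above 0, at 0.13 (SE 0.12), and higher in 4 of 4 pairs, though by 0.002 in pair 3 and with its other 2 probe sets below 0.

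The regulators of SREBP did not follow 1 direction. Srebf2, the gene of SREBP-2 and the host of the microRNA shown above, read 4095, 2619, 4445 and 2802 in control and 3596, 2755, 3403 and 2740 in knockout. Odd-numbered arrays were high and even-numbered arrays low in both groups, and the groups overlapped. The log2 difference was -0.13 (SE 0.18; 0.10 with pairs), with a limma adjusted p of 0.771 with pairs. Insig1, itself a target of SREBP, read 12720, 8222, 12865 and 12126 in control and 12758, 7861, 11933 and 11720 in knockout. Array 2 was far below the other 3 in each group, and same-numbered arrays nearly coincided, with pair differences of -0.11 to 0.004. Insig2, the second retention protein, had 0.22 (SE 0.15; 0.10 with pairs), with a limma adjusted p of 0.555 with pairs, and all 3 of its probe sets were above 0. Scap, the escort of SREBP-2, had 0.003 (SE 0.13), with pair differences of -0.29 to 0.19.

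Most synthesis enzymes had a low point on the arrays numbered 2 of both groups. This pattern was looked at after the values had been seen and is given without a test. For each gene the mean log2 level of both arrays of a number was set against the mean of the other numbers, and on number 2 it was lower for 17 of 18 synthesis enzymes, with a median of -0.28. For all tested genes the share lower on number 2 was 45.7% and the median 0.02. The array numbered 2 was the lowest of its group in both control and knockout for 12 of 18 synthesis enzymes, 8 of the 11 sterol and 4 of the 7 earlier enzymes, and for 3 of the 11 other members, Insig1 among them, against 4.34% of all tested genes. The values on number 2 were -0.64 for Lss, -0.62 for Hsd17b7, -0.60 for Idi1, -0.54 for Hmgcs1, -0.53 for Msmo1 and -0.45 for Cyp51. Among the regulators they were -0.61 for Insig1 and -0.36 for Srebf2. Ggps1, at 0.13, was the 1 synthesis enzyme that was higher on number 2.

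Set against each gene's own 8-array mean, the median synthesis enzyme stood at 0.16, -0.25, 0.15 and 0.15 in controls 1 to 4, and for knockouts 1 to 4 at 0.07, -0.26, 0.03 and 0.02. The arrays numbered 2 of both groups were thus alike, with the other 6 array medians above 0. The range over the 4 numbers exceeded the size of the group difference in 16 of 18 synthesis enzymes (all but Nsdhl and Ebp), in 11 of 11 other members and in 12299 of 13259 tested genes, so that this width was no mark of the enzymes. The median range was 0.43 and the median size of the group difference 0.15 for synthesis enzymes, beside 0.42 and 0.12 for all tested genes. Under quantile normalization 12 of 18, and under median centring 11 of 18, were lowest on number 2 in both groups. The 18S signal was high on numbers 2 and 4, and its relation to the synthesis enzymes was not tested. The source of the low values on number 2 was not tested either.

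**Figure D2:**
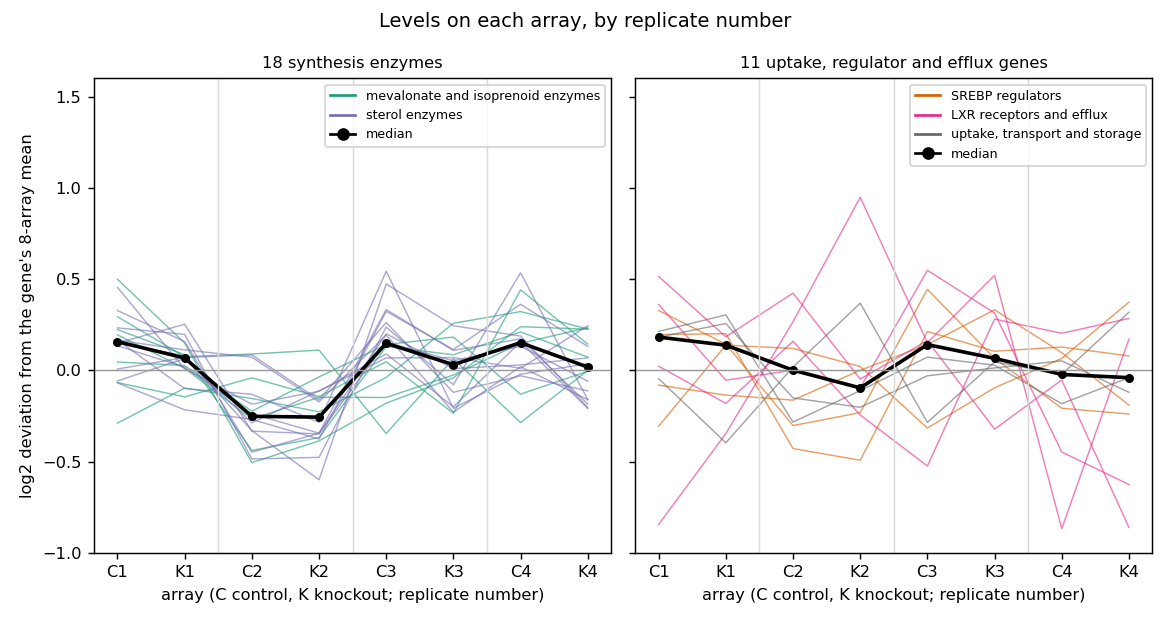
Log2 deviation of each gene from its own 8-array mean (vertical axis) on the control (C) and knockout (K) array of each replicate number, with 1 thin line a gene and the median in black, for 18 synthesis enzymes on the left and 11 other members on the right. The synthesis enzymes dip on C2 and K2 together, to medians of -0.25 and -0.26, and the other members scatter.

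The largest differences of the group lay in cholesterol efflux, and they ran in opposite directions. Apoe, an apolipoprotein that carries cholesterol out of cells, read 8404, 7884, 6570 and 5648 in control and 6667, 5666, 4673 and 3193 in knockout. It was lower in 4 of 4 pairs with number 1 highest and number 4 lowest in both groups, so that knockout arrays 1 and 2 still stood above control array 4. Means were 7127 ± 1252 and 5050 ± 1482 (SD, n = 4), and the log2 difference was -0.52 (SE 0.205; 0.09 with pairs), a level 0.695 times the control's.

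The limma adjusted p of Apoe was 0.999, and 0.0971 with pairs. Leaving out 1 pair at a time gave paired adjusted p from 0.0507 to 0.327, and the difference was -0.32 without knockout array 4 and -0.67 without knockout array 1. Apoe had 1 probe set and no second one to compare. Macrophages are rich in Apoe, and in bulk RNA fewer cells of a type and less RNA per cell cannot be told apart. Of 11 macrophage and leukocyte markers, 8 were tested, 4 above and 4 below 0, and the summed signal of all 11 was 4609 to 6210 in control and 4900 to 5692 in knockout. The defining marker Ptprc was too dim to be tested. The 4 below 0 were Cd68 at -0.37, Fcer1g at -0.19, Cd14 at -0.15 and Csf1r at -0.01. The 4 above 0 were Tyrobp at 0.60, Adgre1 at 0.22, Lyz2 at 0.21 and Laptm5 at 0.14. Cd68 was lower in 4 of 4 pairs, with a limma adjusted p of 0.462 with pairs. The part of the macrophage markers in the Apoe values was not tested. Of the 10 preadipocyte markers, 4 were above and 6 below 0, and 1 passed the test with pairs. This was Dlk1, which fell by 0.72 (limma adjusted p = 0.0436; 0.999 without pairs), a call lost without pair 2, 3 or 4, when 0 probe sets were called lower. Of the 10 preadipocyte markers, 3 read lower in 4 of 4 pairs (Dlk1, Dcn and Pdgfrb) and 1, Thy1, read higher in 4 of 4. The shares of all tested genes were 9.44% and 8.64%. Dcn had -0.39 and Pdgfrb -0.18, with a limma adjusted p of 0.159 and 0.458 with pairs. Thy1 had 0.22, with a limma adjusted p of 0.346 with pairs. The part of these markers in the Apoe values was not tested.

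Abcg1, which passes cholesterol to HDL, read 756, 1719, 1581 and 743 in control and 1098, 2801, 2063 and 1604 in knockout. Every knockout array stood above its partner. Numbers 2 and 3 were high in both groups, so that knockout array 1 stayed below control arrays 2 and 3 and the groups overlapped. Means were 1200 ± 522.9 and 1892 ± 723.4 (SD, n = 4), and the log2 difference was 0.65 (SE 0.31; 0.14 with pairs), a level 1.57 times the control's, with a limma adjusted p of 0.999 and of 0.14 with pairs. The difference ranged from 0.44 without knockout array 2 to 0.87 without knockout array 1. A second probe set of Abcg1 was too dim to be tested and had 2 pairs above and 2 below 0.

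Abca1, which loads cholesterol onto lipid-poor apolipoprotein and is a known target of the microRNA shown above, read 10410, 8094, 11863 and 5912 in control and 7789, 7563, 10072 and 5217 in knockout. Number 3 was highest and number 4 lowest in both groups, each knockout array was below its partner, and the groups overlapped. The log2 difference was -0.23 (SE 0.22; 0.08 with pairs), with a limma adjusted p of 0.402 with pairs. It was -0.06 without knockout array 4 and -0.42 without control array 4. A second tested probe set of Abca1, with signals of 205 to 336, had a difference of 0.08. The remaining one, too dim to be tested, was lower in 4 of 4 pairs.

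Nr1h3, which encodes LXR alpha, read between 257.6 and 506.2 on the 8 arrays, with a difference of 0.07 (SE 0.24) and pair differences of -0.40 to 0.81. The targets of LXR in the list thus held both signs: Abcg1 and Mylip above 0, Abca1 and Apoe below.

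**Figure D3:**
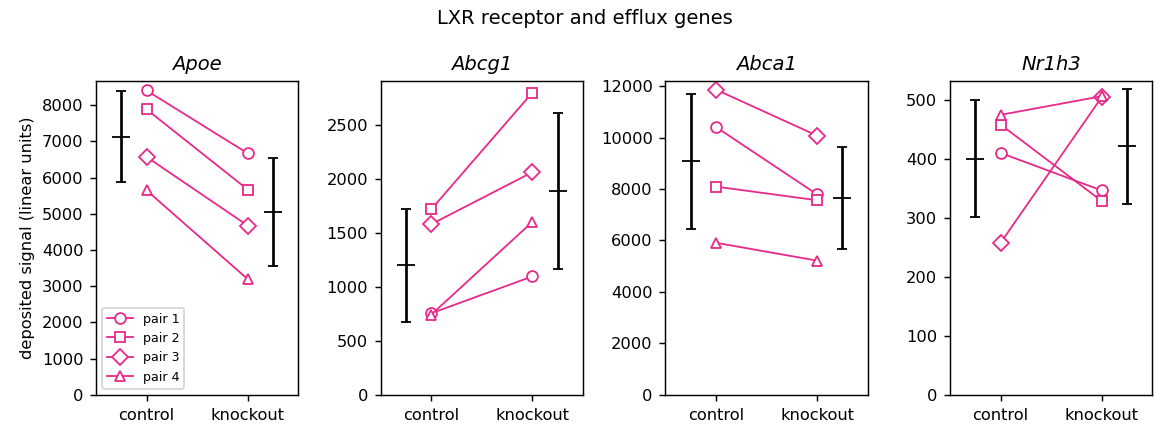
Linear signal (vertical axis, from 0) of Apoe, Abcg1, Abca1 and Nr1h3 in control and knockout, with a line joining each same-numbered pair and black bars for the mean and SD of 4 arrays. The line goes down in 4 of 4 pairs for Apoe and Abca1, up in 4 of 4 for Abcg1, and both ways for Nr1h3.

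The 3 genes of uptake, transport and storage had log2 differences of -0.03 to 0.17. Mylip, a ubiquitin ligase that LXRs switch on, had 0.17 (SE 0.16), with 0.33 to 0.35 in pairs 2 to 4 and -0.35 in pair 1. Its difference was 0.33 in the unpaired fit without knockout array 1. Scarb1, a receptor for HDL, had 0.09 (SE 0.14), and its other 2 probe sets were below 0. Stard4, which moves cholesterol between membranes, had -0.03 (SE 0.13). In limma the adjusted p of all 3 was 0.999 without pairs and 0.73 to 0.966 with them.

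The synthesis enzymes and the other members were then set side by side. The median difference was -0.11 for the 18 synthesis enzymes, with 13 below 0, and 0.003 for the 11 others, with 5 below 0, while 50.4% of all tested genes were below 0. The synthesis enzymes ran from -0.28 to 0.13, and the others from -0.52 to 0.65. By pair, the median of the synthesis enzymes was -0.10, -0.003, -0.20 and -0.12, and that of the others -0.05, -0.05, 0.04 and -0.03. The synthesis median was -0.22 without control array 2 and -0.01, with 9 of 18 below 0, without knockout array 2. Each of these fits keeps the other array numbered 2, which was also low, in its group. With 1 whole pair left out, the synthesis median was -0.143 to -0.085, with 12 to 13 of 18 below 0. The difference between the lists was not tested, since genes are not replicates.

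**Figure D4:**
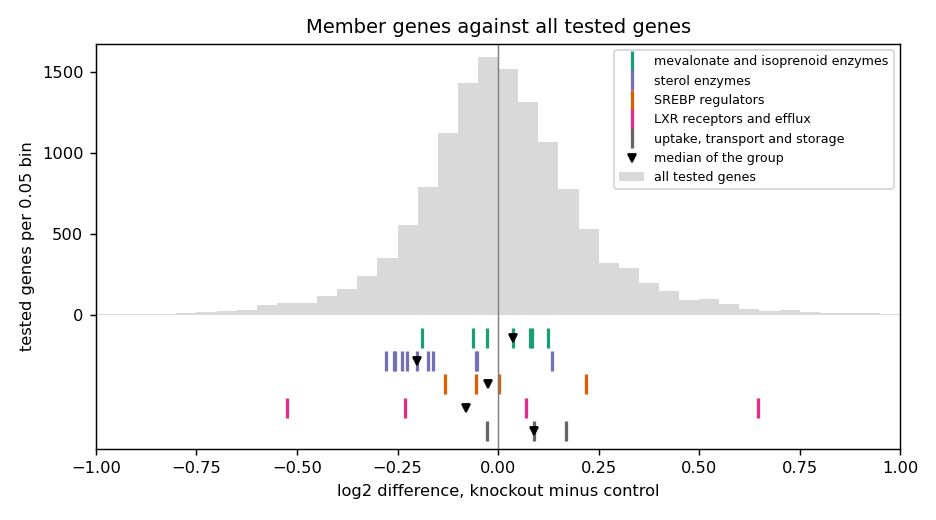
Histogram of the log2 difference (knockout minus control, horizontal axis) of all 13259 tested genes, as genes per bin of 0.05 (vertical axis), with a tick for each member below it, 1 line of ticks a role, and a triangle at the median of the role. The synthesis enzymes lie within the 5th to 95th percentile of all genes, -0.33 to 0.37, and Apoe and Abcg1 lie outside it.

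Other genes of the cholesterol pathway, from a list of 37, were described in the same way. Of these, 28 were measured and tested, 15 above and 13 below 0, and 0 passed the test in either fit. At an unadjusted p under 0.05 with pairs, 2 of 28 were higher and 2 lower, near the shares of all tested genes (4.96% and 5.35%). Cyp7b1, which hydroxylates oxysterols, read 7141, 9481, 9661 and 4498 in control and 6416, 3036, 4937 and 2642 in knockout. It was lower in 4 of 4 pairs, with control arrays 2 and 3 the highest, and the groups overlapped. The log2 difference was -0.87 (SE 0.29; 0.17 with pairs), with a limma adjusted p of 0.124 with pairs, which was 0.0203 without pair 1 and up to 0.406 without the other pairs. Vldlr, a lipoprotein receptor, had -0.30 (SE 0.18; 0.08 with pairs), Erlin2, a protein of the endoplasmic reticulum that takes part in protein degradation there, 0.32 (SE 0.15; 0.10 with pairs), and Pltp, the phospholipid transfer protein, 0.24 (SE 0.19; 0.08 with pairs).

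The fatty acid genes that SREBP proteins also drive gave 14 tested members, 10 of them below 0 (50.4% of all tested genes), with a median of -0.12 and 0 that passed the test. With pairs, 4 of 14 were lower at an unadjusted p under 0.05 (5.35% of all tested genes). Fasn, fatty acid synthase, read 10348, 6208, 9437 and 6010 in control and 8184, 4897, 6491 and 4540 in knockout. Odd-numbered arrays were high and even-numbered ones low in both groups, and each knockout array was below its partner. The log2 difference was -0.40 (SE 0.22; 0.08 with pairs), with a limma adjusted p of 0.124 with pairs. Acaca, which makes malonyl-CoA, had -0.27 by its brightest probe set and 0.003 as the mean over its probe sets. Acly, which makes cytosolic acetyl-CoA, had -0.22, and Fads1, a desaturase, -0.20.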

How the data were processed

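RNA of 8 samples, 4 control and 4 knockout, was measured on 1 array each. Per the submitters' processing notes, GCOS 1.3 and MAS5 were used, and the deposited values are linear intensity (signal) per probe set; whether they were normalized beyond the common trimmed mean is not stated. Values were taken as log2(signal + 73.1), the pseudocount being the 20th percentile of all values, which understates changes of dim probe sets. Of 45101 probe sets, 64 array controls were left out and 27026, those in the upper 60% of mean log2 values, entered a test in limma 3.58.1 (R 4.3.3; mean-variance trend, two-sided, Benjamini-Hochberg over all tested probe sets, threshold 0.05). Python 3.11.15 with matplotlib 3.10.9 drew the figures. Where a gene had several tested probe sets with 1 symbol, the brightest stands for it, and levels are not compared between probe sets. Of the 29 members, 15 had several tested probe sets, which disagreed in direction in 9. The probe sets standing for Hmgcs1, Mvd, Fdft1, Lss and Hsd17b7 carry suffixes of sets that may bind related transcripts.

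Each comparison was first fitted without pairs. To check the pairing, each array was centred on its group mean per probe set; the correlation was 0.189 to 0.372 between a control and a knockout array of the same number and -0.347 to 0.149 for different numbers. Every same-numbered value exceeded 0.1, the rule used to count equal numbers as pairs here. Control 1 with knockout 3 (0.134), control 2 with knockout 4 (0.149) and control 4 with knockout 2 (0.117) also exceeded it. The rule alone thus does not tell pairs from a split of odd and even numbers. The paired fit has the number as a block. Every member is named, with values on all arrays for those at an unadjusted p under 0.05 in either fit and for Srebf2, Insig1, Hmgcs1, Sqle, Abca1 and Apoe. Genes of the other pathway lists are named by the same p rule. The members and the 14 gene lists were chosen with earlier results of these data known. The fits were also run on simulated data with planted differences. The outcome is not given here, so it does not show what size of difference these arrays could detect. Alternatives were other pseudocounts, filters, scalings, variance models, array weights, arrays or pairs left out, and the mean over probe sets.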

Additional observations from a re-analysis of the deposited data

Results flagged for a closer look

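Among the genes named above, 74 sets of 4 values (37 genes in 2 groups) were examined for 1 value far from the other 3. In 4 sets such a value was found, near the share of about 1 in 20 sets that chance gives. The 4 values came from only 2 arrays, control array 2 and knockout array 2, and each was the lowest of its group. Because these sets share arrays, they are not independent of each other. Hmgcs1 read 29415.3 on control array 2, next to 43688.6 on the closest other control array, a gap of 0.86 of the range. On knockout array 2, Hmgcs1 read 30893.1, next to 41956.1, a gap of 0.971 of the range. Cyp51 read 6461.1 on control array 2, next to 8947.1, a gap of 0.953 of the range. Insig1 read 8221.6 on control array 2, next to 12125.6, a gap of 0.868 of the range.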

How the results depend on the processing

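The count of member probe sets called was 0 under all 21 tested alternatives, with a smallest adjusted p of 0.0507 for Apoe in the block without pair 1. Over all tested probe sets, 1 was called without pairs, 13 with the replicate block (10 higher, 3 lower), and 0 with no filter, with median centring or without the mean-variance trend. Leaving out 1 array gave 0 to 2 calls, and leaving out 1 pair under the block 0 to 80, the latter without pair 1. The replicate block changed no call of a member.

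The synthesis median was -0.216 (without control array 2) to -0.0138 (without knockout array 2), -0.143 to -0.085 with 1 pair left out, and -0.139 to -0.0701 under the other settings. The median of the other 11 members was -0.0507 (without control array 2) to 0.0734 (without knockout array 2), -0.0483 to 0.0659 with 1 pair left out, and -0.0564 in the even-numbered pairs. Of 29 members, 19 kept their direction under every alternative that has a test. The 10 others turned when an array or a pair was left out. With an array left out they lay between -0.22 and 0.0495 for Hmgcs1, -0.0463 and 0.107 for Pmvk, -0.0032 and 0.201 for Mvd, -0.199 and 0.136 for Idi1, -0.171 and 0.0563 for Cyp51, -0.213 and 0.0513 for Msmo1, -0.107 and 0.0671 for Scap, -0.206 and 0.101 for Insig1, -0.0936 and 0.163 for Nr1h3, and -0.117 and 0.0366 for Stard4. With a pair left out, Idi1 lay between -0.0815 and 0.0814, Scap -0.0594 and 0.0999 (-0.0503 without pair 2), Nr1h3 -0.176 and 0.228, and Stard4 -0.0603 and 0.0221. Array weights turned Hmgcs1 to 0.0122, Idi1 to 0.0642, Msmo1 to 0.0279 and Nr1h3 to -0.00243, and median centring turned Scap to -0.023; the cause was not tested. The mean over all probe sets of a gene gave -0.0209 for Sc5d, -0.0201 for Scarb1, -0.0165 for Ggps1 and 0.00293 for Acaca, and put 11 of 11 sterol enzymes below 0. Dim probe sets (5 of 64) were not tested.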
